A study of Mus musculus with 7 samples.

Results

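Cells make cholesterol from acetyl-CoA through the mevalonate pathway, which ends in farnesyl diphosphate, and through the steps that turn squalene into cholesterol. They make long fatty acids from the same precursor with acetyl-CoA carboxylase and fatty acid synthase, and then lengthen and desaturate them. Transcription of both sets of enzymes is driven by the sterol regulatory element binding proteins (SREBPs), which are held in the endoplasmic reticulum with the help of INSIG proteins when sterols are plentiful. Regulatory T cells (Tregs), the Foxp3-positive T cells that restrain immune responses, are known to draw on the mevalonate pathway for their proliferation and suppressive function.

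The genes described here are 32 enzymes and regulators of cholesterol and fatty acid synthesis, named by symbol and found among the 51138 genes of a count table. They comprise 18 sterol pathway genes (7 of the mevalonate stage and 11 from squalene to cholesterol), 3 genes of SREBP control (Srebf1, Srebf2 and Insig1) and 11 fatty acid genes (4 of synthesis, 3 elongases and 4 desaturases). The genes were picked by name for their place in these pathways, with earlier results of these data known. All 32 were found in the table, and 31 had enough counts to be among the 15954 genes tested. Fads2 did not.

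RNA was sequenced from Tregs sorted from the spleens of C57/BL6 mice with a fluorescent (RFP) reporter of Foxp3, and the mice had been injected 72 h before. The treated mice had received 20 ug of a fusion protein (FP) that joins interleukin-2 to CD25, the alpha chain of its receptor, and gave 4 libraries. The control mice had received 100 uL of PBS and gave 3 libraries. Both groups share the strain and the reporter. Age and sex of the mice, and whether each library came from 1 mouse or from pooled mice, are not given in the sources used here, so p-values measure only the spread between these libraries, which may be technical.

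Total counts were 9956509 to 13429878 per library. Levels are in CPM, counts scaled to a common library size, with the size corrected by edgeR's TMM (trimmed mean of M) factors, which were 0.839 to 1.05 for FP and 1.07 to 1.15 for PBS. Defining genes of the labelled cell type were present in every library, with Foxp3 at 539 ± 52.9 CPM (SD, n = 4) after FP and 490 ± 7.29 CPM (SD, n = 3) after PBS. Il2ra, which encodes CD25, was at 1935 ± 316 CPM after FP and 600 ± 32.7 CPM after PBS. The 2 groups also differed in other respects that run beside every result here. All 10 cell division genes listed rose, and their summed level was 2040 to 3828 CPM after FP against 228 to 303 CPM after PBS. All 15 macrophage markers fell, none of them at 0 in all libraries, and their summed level was 25.1 to 144 CPM after FP against 785 to 2001 CPM after PBS. This sum reached p = 0.0286 in an exact two-sided permutation test, the smallest that 35 assignments allow, and 0.0762 after adjustment over 8 marker sums. The sums of Treg markers (6080 to 7267 CPM after FP and 4096 to 4602 CPM after PBS) and dendritic cell markers (11.7 to 15.7 CPM and 25.1 to 37.5 CPM) gave the same exact p. The Treg sum includes Il2ra, and edgeR called 5 of the 10 Treg markers higher and 5 neither higher nor lower. The sums of B cell, neutrophil, erythroid, CD8 T and NK cell, and stromal markers gave exact p of 0.0571 to 0.343. The neutrophil genes Elane and Retnlg and the NK gene Klra8 were at 0 in every library. The part of dividing cells and of macrophage RNA in the results was not tested. In these bulk samples, a change in the mix of cells and a change in RNA per cell cannot be told apart.

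SREBPs bind sterol response elements, and their partners NF-Y and Sp1 bind CCAAT and GC boxes nearby. RefSeq (GRCm38.p6) gave promoters, from 250 bases before to 50 bases after a start, for 26 of the 32 genes, and none for Fdps, Fdft1, Sqle, Scd1, Scd2 and Fads1. The sterol response element pattern TCACNNCAC was searched on both strands and was found for 4 of the 26 genes (15.4%), against 1180 of all 27025 genes with a promoter (4.37%). All 4 were sterol pathway genes, of 15 with a promoter, and none of the 8 fatty acid genes with a promoter held it. The 4 sites are shown with their flanks, 5′ to 3′ along the gene, with the pattern in capitals. They lie at chr13:119690204-119690232 (plus strand) for Hmgcs1, chr1:169969304-169969332 (minus strand) for Hsd17b7, chr8:64733652-64733680 (minus strand) for Msmo1 and chr7:143823259-143823287 (plus strand) for Dhcr7.
Hmgcs1: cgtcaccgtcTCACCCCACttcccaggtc
Hsd17b7: tcggcctatcTCACCTCACccggtctggg
Msmo1: cacggaccaaTCACTGCACggcgaaggca
Dhcr7: ggaaaagggcTCACTTCACcttatagctc
The sites start 137, 117, 92 and 130 bases before the RefSeq start of Hmgcs1, Hsd17b7, Msmo1 and Dhcr7. The GENCODE annotation places no feature at the Hmgcs1 and Hsd17b7 sites, and an exon with untranslated sequence of the gene itself at the Msmo1 and Dhcr7 sites. The Msmo1 site shares 1 base with a CCAAT box, and the Dhcr7 site lies in 1 of its 3 listed promoters.

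CCAAT boxes were found on either strand for 22 of the 26 genes (84.6%), for 14 of the 15 sterol pathway genes and for 41.1% of all genes with a promoter. GC boxes (GGGCGG, either strand) were found for 21 of 26 (80.8%) and for 38.2% of all genes. The 250 bases upstream of Ebp (chrX:8193513-8193762, minus strand) and of Mvd (chr8:122443423-122443672, minus strand) are shown because these sterol pathway genes had the highest fold changes below and hold no TCACNNCAC. Their CCAAT boxes, read as CCAAT or ATTGG, are in capitals.
Ebp: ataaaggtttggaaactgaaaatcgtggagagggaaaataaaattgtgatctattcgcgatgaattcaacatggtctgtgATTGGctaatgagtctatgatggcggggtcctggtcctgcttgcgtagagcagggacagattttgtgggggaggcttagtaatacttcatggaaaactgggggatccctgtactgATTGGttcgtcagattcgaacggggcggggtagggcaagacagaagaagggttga
Mvd: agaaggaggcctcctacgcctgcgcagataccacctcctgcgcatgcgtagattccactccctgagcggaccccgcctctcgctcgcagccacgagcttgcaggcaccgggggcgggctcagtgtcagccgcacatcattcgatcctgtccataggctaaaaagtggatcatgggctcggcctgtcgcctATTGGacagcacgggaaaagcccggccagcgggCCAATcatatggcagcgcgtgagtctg
Each holds 2 CCAAT boxes in these bases. A match is a description of the letters and not a measured binding site, and a missing match says only that the letters are not in this window.

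Sterol and fatty acid synthesis genes were mostly higher after FP. Of the 31 genes tested, 16 rose (51.6%), 1 fell and 14 did not pass the threshold, an adjusted p of 0.05 in edgeR's quasi-likelihood test. Over all 15954 genes tested, 21.0% rose and 18.5% fell, 39.5% in all. The median log2 fold change was 0.51 for the 31 genes and -0.05 for all genes. All 4 FP libraries lay above all 3 PBS libraries for 20 of the 31 genes and below them for 3, where 23.3% and 23.5% of all genes did so. The genes that rose were 10 of 18 in the sterol pathway and 6 of 10 tested among the fatty acid genes. None of the 3 SREBP control genes passed.

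**Figure D1:**
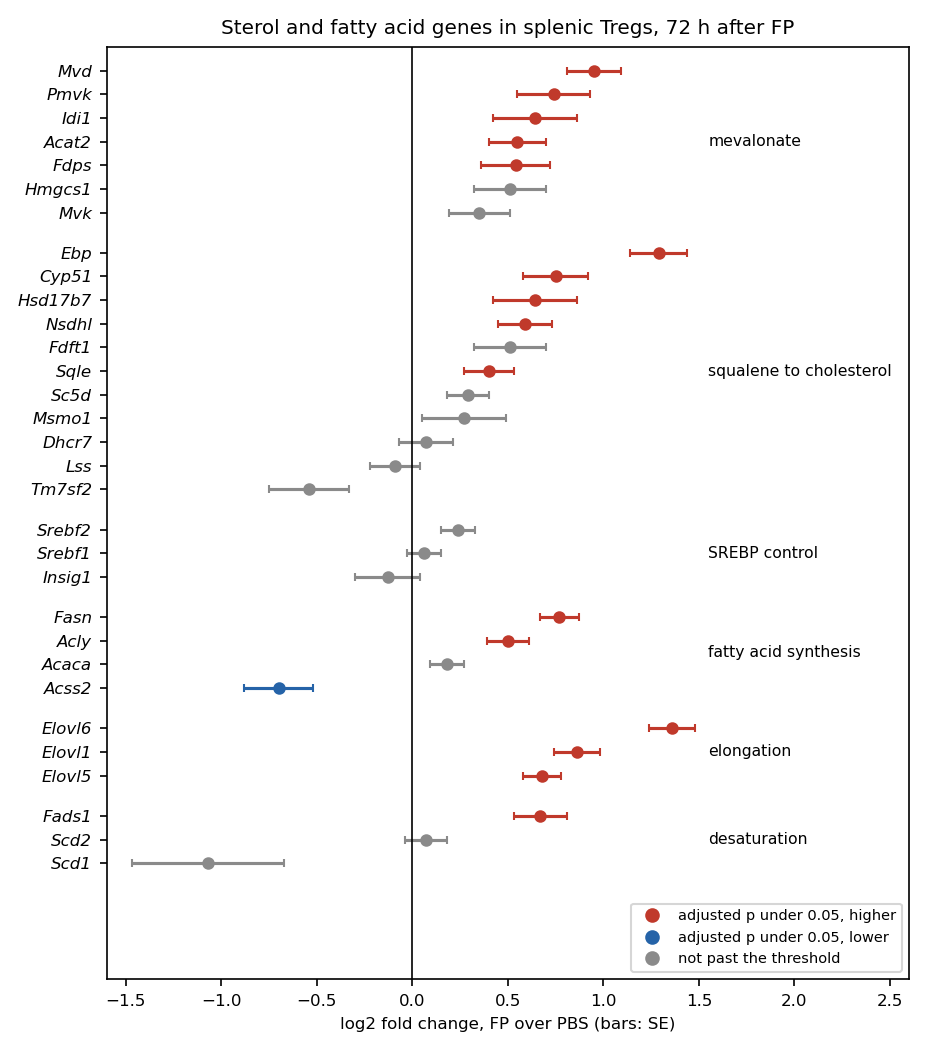
Log2 fold change of FP over PBS (horizontal axis) for the 31 genes tested, grouped by role. Points are edgeR estimates and bars their standard errors. Elovl6 (1.36) and Ebp (1.29) lie farthest to the right, Acss2 is the gene called lower, and Srebf1, Srebf2 and Insig1 lie from -0.13 to 0.24.

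In the mevalonate stage 5 of 7 genes rose, with a median log2 fold change of 0.55 over the 7. Mvd, which encodes the decarboxylase that makes isopentenyl diphosphate, stood highest (ENSMUSG00000006517.5, GRCm38 chromosome 8, 122433601 to 122443422, minus strand). It measured 34.1, 37.8, 33.8 and 28.8 CPM in the FP libraries and 16.4, 20.5 and 15.3 CPM in the PBS libraries. Every FP library was above every PBS library, and the means were 33.6 ± 3.70 CPM (SD, n = 4) and 17.4 ± 2.73 CPM (SD, n = 3). The fold was 1.93, with a log2 fold change of 0.95 (SE 0.14) and an adjusted p of 0.000682.

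Pmvk encodes phosphomevalonate kinase, the enzyme before it. It measured 13, 14.1, 10.5 and 11 CPM after FP and 8.73, 6.07 and 6.99 CPM after PBS (log2 fold change 0.74, SE 0.19, adjusted p = 0.00974). The groups did not overlap. Acat2, a cytosolic acetoacetyl-CoA thiolase at the entry of the pathway, measured 14.9, 18.4, 15.4 and 14.9 CPM after FP and 11.3, 11.6 and 9.69 CPM after PBS (log2 fold change 0.55, SE 0.15, adjusted p = 0.0127). Its counts are less certain, since Acat3 is a close copy.

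Idi1, the isomerase of isopentenyl diphosphate, rose by a log2 fold change of 0.64 (standard error 0.22, adjusted p = 0.0393), from 5.92 to 7.32 CPM after PBS to 7.95 to 13.8 CPM after FP. Replicate 1 gave the highest FP value and the other 3 FP libraries reached at most 9.75 CPM. Idi1 shares 323 exon bases with Gm48574 on the opposite strand, which was not among the genes tested. Fdps, farnesyl diphosphate synthase, was at 8.23 to 11 CPM after FP and 5.68 to 7.09 CPM after PBS (log2 fold change 0.54, SE 0.18, adjusted p = 0.0361). Fdps shares 1124 of its 4208 exon bases with Gm43738 on the same strand, a gene at 0.251 CPM after FP and 0.224 CPM after PBS.

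Hmgcs1 and Mvk did not pass. Hmgcs1, the HMG-CoA synthase whose promoter holds the sterol response element pattern printed first, measured 76.9, 94.3, 54.8 and 59.7 CPM after FP and 58.8, 49.6 and 41.6 CPM after PBS. Replicates 1 and 2 of FP were well above PBS, while FP replicate 3 was below the highest PBS library. Its log2 fold change was 0.51 (SE 0.19, adjusted p = 0.0568). Hmgcs1 shares 557 exon bases with Gm48342 on the opposite strand, which was not among the genes tested. Mvk, mevalonate kinase, was at 10.3 to 13 CPM after FP and 8.47 to 10.4 CPM after PBS (log2 fold change 0.35, SE 0.16, adjusted p = 0.103).

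From squalene to cholesterol 5 of 11 genes rose, with a median log2 fold change of 0.40. Ebp, the sterol isomerase that acts on zymosterol, had the largest log2 fold change of the 18 sterol pathway genes (ENSMUSG00000031168.14, chromosome X, 8185329 to 8193512, minus strand). It measured 67.4, 70.3, 60.0 and 46.8 CPM after FP and 27.1, 25.9 and 22.1 CPM after PBS. The lowest FP library was well above the highest PBS library, and the means were 61.1 ± 10.5 CPM (SD, n = 4) and 25.0 ± 2.6 CPM (SD, n = 3). The fold was 2.44, with a log2 fold change of 1.29 (SE 0.15) and an adjusted p of 0.000152.

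Cyp51, lanosterol 14-demethylase, measured 106, 106, 61.9 and 82.8 CPM after FP and 56.8, 49.5 and 52.5 CPM after PBS (log2 fold change 0.75, SE 0.17, adjusted p = 0.00729). FP replicate 3 was nearest to PBS. Cyp51 shares 166 of 4415 exon bases with Akap9 on the opposite strand, and Akap9 fell (log2 fold change -0.28, adjusted p = 0.0125). Nsdhl, a dehydrogenase of the C4 demethylation complex, was at 18.9 to 25.1 CPM after FP and 13.5 to 15.9 CPM after PBS (log2 fold change 0.59, SE 0.14, adjusted p = 0.00806).

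Hsd17b7, the ketoreductase of the same complex and a gene with the sterol response element pattern, measured 16.3, 20.0, 10.3 and 12.0 CPM after FP and 9.52, 9.43 and 9.17 CPM after PBS. The PBS libraries were nearly level, while FP replicates 1 and 2 stood above replicates 3 and 4. Its log2 fold change was 0.64 (SE 0.22, adjusted p = 0.0424). Sqle, squalene epoxidase, was at 37.7 to 49.8 CPM after FP and 28.6 to 34.2 CPM after PBS (log2 fold change 0.40, SE 0.13, adjusted p = 0.0292).

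The 6 others did not pass. Fdft1, squalene synthase, measured 46.5, 52.2, 32.7 and 31.7 CPM after FP and 30.1, 30.8 and 24.6 CPM after PBS, with a log2 fold change of 0.51 (standard error 0.19, adjusted p = 0.0513). It shares 774 of 4227 exon bases with Ctsb on the opposite strand, which fell (log2 fold change -0.75, adjusted p = 0.00781). Sc5d, lathosterol desaturase, lay at 45.6 to 58.5 CPM after FP and 39.8 to 43.9 CPM after PBS, without overlap (log2 fold change 0.29, adjusted p = 0.0553). Msmo1, the C4 methyl oxidase with the third printed site, ran from 24.5 to 50 CPM after FP and from 28.8 to 33.7 CPM after PBS (log2 fold change 0.27, SE 0.22, adjusted p = 0.350). Lss, lanosterol synthase, was at 21.4 to 29.3 CPM after FP and 25.6 to 28 CPM after PBS (log2 fold change -0.09, SE 0.13, adjusted p = 0.607). Lss shares 381 of 10787 exon bases with 4930483K19Rik on the opposite strand, which did not pass (adjusted p = 0.384). Dhcr7, which makes cholesterol in the last step and holds the fourth site, was at 29.8 to 38.4 CPM after FP and 25.8 to 34.1 CPM after PBS (log2 fold change 0.07, SE 0.14, adjusted p = 0.704). Of the 4 genes with the pattern, Hsd17b7 thus passed and Hmgcs1, Msmo1 and Dhcr7 did not. Hsd17b7 and Hmgcs1 lay close to the threshold on either side (edgeR adjusted p = 0.0424 and 0.0568). Over the 15 alternatives, Hsd17b7 was called in 7 and Hmgcs1 in 5.

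Tm7sf2, a sterol C14 reductase, was the sterol pathway gene with FP values below PBS. It measured 5.79, 3.99, 6.03 and 6.26 CPM after FP and 8.55, 8.92 and 6.64 CPM after PBS (log2 fold change -0.54, SE 0.21, adjusted p = 0.0626). The groups did not overlap. It shares 532 of 4403 exon bases with Vps51 on the same strand (Vps51 log2 fold change 0.12, adjusted p = 0.445).

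**Figure D2:**
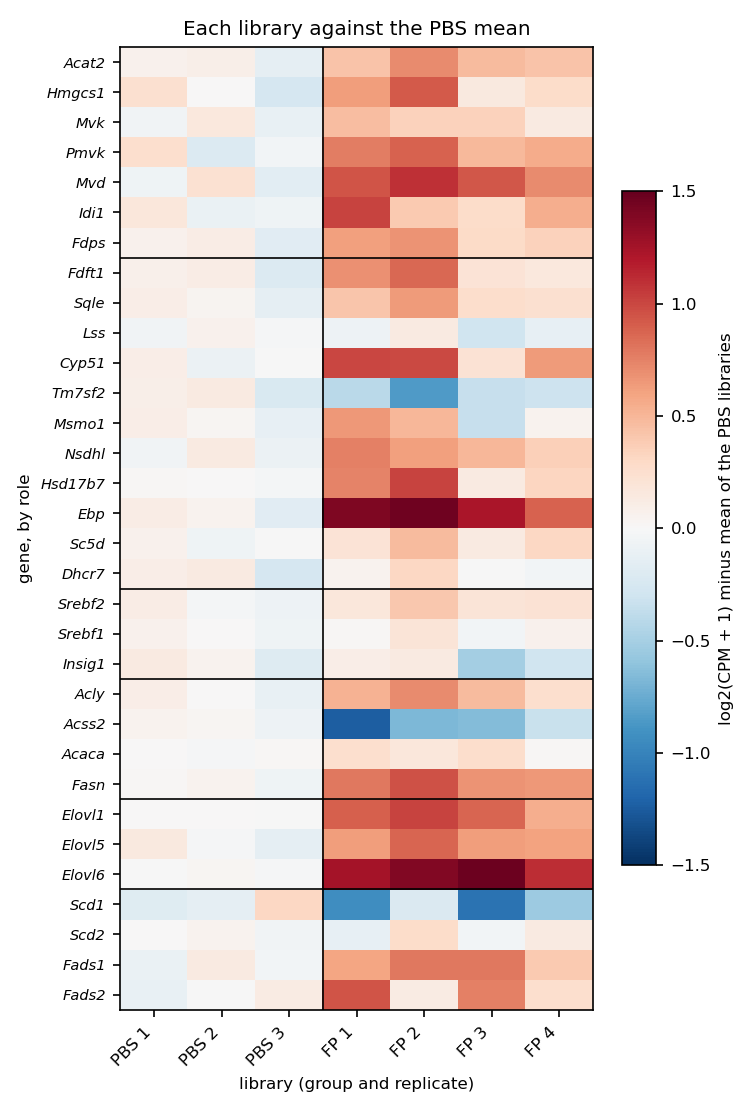
Each library (columns) against the mean of the 3 PBS libraries for the 32 genes (rows, by role), as differences of log2(CPM + 1), with red above and blue below the PBS mean. Most sterol genes are redder in FP replicates 1 and 2 than in 3 and 4, while the elongase rows are red in all 4 FP libraries.

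The FP libraries were not alike in the sterol pathway. The summed level of the 18 genes was 641, 692, 494 and 518 CPM in FP replicates 1 to 4 and 435, 418 and 373 CPM in the PBS libraries. The median log2 difference of the 18 genes from the PBS mean was 0.64 and 0.65 in FP replicates 1 and 2, and 0.24 and 0.31 in replicates 3 and 4. The TMM factors moved with this split, at 0.839 and 0.849 for FP replicates 1 and 2, and 0.971 and 1.05 for replicates 3 and 4. Scaled by library size alone, the same sums were 538, 587, 480 and 542 CPM after FP and 466, 468 and 429 CPM after PBS, so that FP replicates 1 and 4 came out close and all FP sums stayed above PBS. The part of the scaling in the split was not tested otherwise.

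None of the SREBP control genes passed in edgeR with TMM factors and all libraries. Srebf2, the SREBP that acts mainly on sterol genes, measured 248, 292, 253 and 257 CPM after FP and 238, 217 and 209 CPM after PBS (log2 fold change 0.24, SE 0.09, adjusted p = 0.0596). The groups did not overlap, but the difference did not pass here. It passed in the DESeq2 test (log2 fold change 0.26, adjusted p = 0.0407). Srebf1, which acts more on fatty acid genes, was at 83.8 to 98.3 CPM after FP and 81.8 to 90.6 CPM after PBS (log2 fold change 0.06, SE 0.09, adjusted p = 0.618). Srebf1 shares 109 of 5634 exon bases with Rai1 on the opposite strand, and Rai1 fell (log2 fold change -0.38, adjusted p = 0.00918). Insig1, which retains SREBPs and is itself a classic SREBP target, measured 52.0, 53.6, 33.9 and 39.2 CPM after FP and 53.9, 50.3 and 42.4 CPM after PBS (log2 fold change -0.13, SE 0.17, adjusted p = 0.552). With library size alone, edgeR called Insig1 lower (log2 fold change -0.42, adjusted p = 0.0231). Whether the changes of the SREBP control genes differ from those of the pathway genes was not tested.

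**Figure D3:**
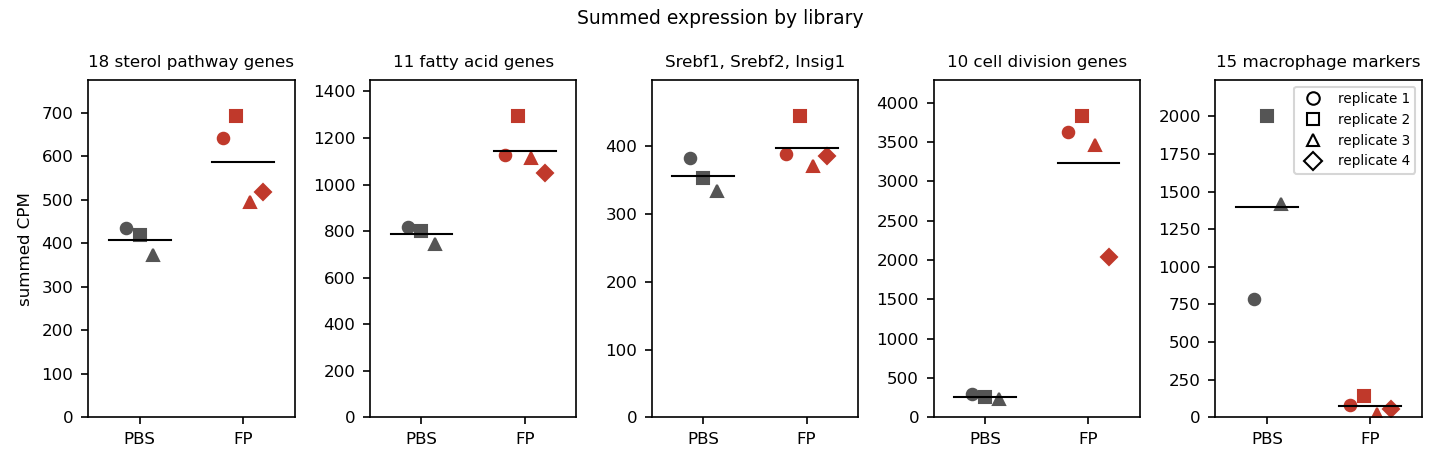
Summed CPM (vertical axes, each from 0) of 5 gene groups in each library, with the replicate number given by the symbol and the group mean by a line. FP sums lie above PBS for the sterol, fatty acid and cell division genes and below PBS for the macrophage markers, while the SREBP control sums overlap (370 to 444 CPM after FP and 333 to 382 CPM after PBS).

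Among the fatty acid synthesis genes, Fasn and Acly rose and Acss2 fell. Fasn, fatty acid synthase (ENSMUSG00000025153.9, chromosome 11, 120805846 to 120824547, minus strand), measured 332, 374, 306 and 302 CPM after FP and 195, 199 and 182 CPM after PBS. The groups were far apart relative to their spread, at 329 ± 33.2 CPM (SD, n = 4) and 192 ± 8.78 CPM (SD, n = 3). The fold was 1.71 (log2 fold change 0.77, SE 0.10, adjusted p = 0.000268). Acly, which makes cytosolic acetyl-CoA from citrate, measured 268, 305, 259 and 221 CPM after FP and 200, 186 and 172 CPM after PBS (log2 fold change 0.50, SE 0.11, adjusted p = 0.00648).

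Acss2 makes acetyl-CoA from acetate, the other route to the same precursor (ENSMUSG00000027605.18, chromosome 2, 155517948 to 155585724, plus strand). It measured 17.9, 27.0, 27.4 and 34.5 CPM after FP and 45.3, 44.5 and 41.2 CPM after PBS. All FP libraries were below all PBS libraries, and FP replicate 4 was the nearest. The log2 fold change was -0.70 (SE 0.18, adjusted p = 0.0112). Acss2 shares 395 exon bases with Gss and 197 with Ggt7 on the opposite strand, of 10163, and neither of these passed (adjusted p = 0.237 and 0.268). Acss2 also shares 335 exon bases with Acss2os on the opposite strand, which was not among the genes tested. Acss2os was at 0.324 CPM after FP and 1.17 CPM after PBS. Acaca, the acetyl-CoA carboxylase of the cytosol, was at 51.4 to 60.7 CPM after FP and 49.9 to 51.2 CPM after PBS (log2 fold change 0.18, SE 0.09, adjusted p = 0.151).

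All 3 elongases rose. Elovl6, which lengthens palmitate to stearate (ENSMUSG00000041220.10, chromosome 3, 129532355 to 129638495, plus strand), measured 42.9, 47.3, 50.2 and 38.8 CPM after FP and 17.3, 17.8 and 17.2 CPM after PBS. The means were 44.8 ± 5.0 CPM (SD, n = 4) and 17.4 ± 0.307 CPM (SD, n = 3), a fold of 2.57. Its log2 fold change of 1.36 (standard error 0.12, adjusted p = 2.4e-05) was the largest of the 31 genes tested.

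Elovl1, which makes very long saturated chains, measured 74.1, 80.1, 72.7 and 57.9 CPM after FP and 39.3, 39.6 and 38.9 CPM after PBS (log2 fold change 0.86, SE 0.12, adjusted p = 0.000361). It shares 53 of 2726 exon bases with the cell division gene Cdc20 on the opposite strand. Cdc20 stood at 36.9 CPM after FP and 3.57 CPM after PBS. Elovl5, which lengthens polyunsaturated fatty acids, measured 202, 240, 203 and 199 CPM after FP and 145, 129 and 119 CPM after PBS (log2 fold change 0.68, SE 0.10, adjusted p = 0.00062).

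The desaturases were mixed. Fads1, the delta-5 desaturase of polyunsaturated fatty acids, measured 26.9, 31.2, 31.1 and 23.3 CPM after FP and 16.3, 19.4 and 17.1 CPM after PBS (log2 fold change 0.67, SE 0.14, adjusted p = 0.00418). Scd2, a stearoyl-CoA desaturase, was at 98.2 to 130 CPM after FP and 103 to 111 CPM after PBS (log2 fold change 0.07, SE 0.11, adjusted p = 0.600). Its paralog Scd1 had only 6 to 21 counts per library after FP and 22 to 36 after PBS, which is 0.548 to 1.86 CPM and 1.94 to 3.14 CPM. The log2 fold change of Scd1 was -1.07 (SE 0.40, adjusted p = 0.0535). Fads2, the delta-6 desaturase, had 10, 2, 9 and 4 counts after FP and 0, 1 and 2 after PBS. The ratio of these counts, scaled for library size corrected by TMM factors, was 6.67, with an exact 95% interval of 2.03 to 34.5. The interval covers counting error only.

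Levels were compared between genes as CPM per kb of merged exon. After PBS, Elovl5 (37.3), Acly (35.3) and Srebf2 (30.8) stood highest, followed by Scd2 (19.6) and Fasn (17.6). Scd1 (0.486) and Fads2 (0.0251) stood lowest. Among these levels Ebp moved from rank 11 to rank 5 of 32, at 10.8 after PBS and 26.5 after FP. Elovl6 moved from rank 25 to rank 18, at 2.71 and 6.97. Acss2 dropped from rank 19 to rank 27, at 4.30 and 2.63, the largest move in rank of the 32 genes.

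**Figure D4:**
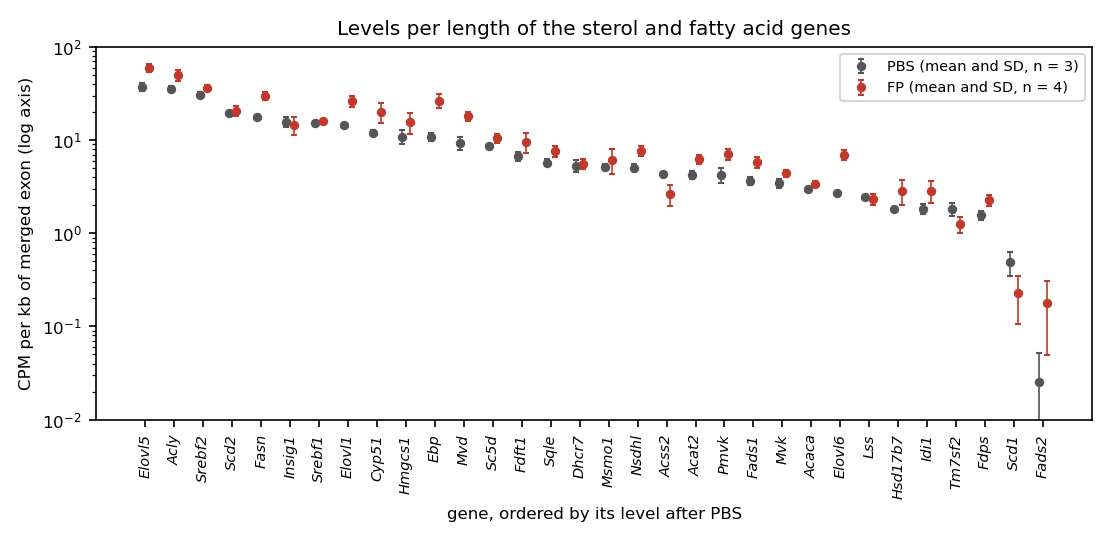
CPM per kb of merged exon (vertical axis, log scale) for the 32 genes, ordered by their level after PBS, with means and SD of the 3 PBS and 4 FP libraries. Levels span from Elovl5 (37.3 after PBS) to Fads2 (0.0251), whose lower PBS bar runs below the axis, and Ebp and Elovl6 stand clearly above their PBS points after FP.

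Lists of other lipid genes were followed to place these results. From each list, genes named are among the 4 with the smallest p. Other scalings shifted these lists along with all genes. The median log2 fold change over all genes was -0.05 with TMM factors, -0.25 with upper-quartile factors and -0.31 with only library size. The isoprenoid branch, which leads from farnesyl diphosphate to prenylated proteins, dolichol and ubiquinone, had 1 of 14 genes higher and none lower, with a median of 0.14 that turned to -0.07 with upper-quartile factors and -0.14 when only library size was used. The gene that rose was Pggt1b, a subunit of a protein prenyltransferase (0.32, adjusted p = 0.0352). It lost this call in either of those scalings, with no filter, and on leaving out any single PBS library or FP replicate 1 or 2 (adjusted p = 0.056 to 0.755).

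Of 10 genes of SREBP processing and sterol-regulated degradation, 1 rose and 3 fell. With either of the other scalings, upper-quartile factors or only library size, none rose and 5 fell. Of all 15954 genes, 4823 and 5046 fell in these scalings, against 2953 with TMM factors. In the list, 1 gene fell with no filter, without FP replicate 1, without FP replicate 3 or without any single PBS library. Ube2g2, a ubiquitin-conjugating enzyme, was the gene that rose (log2 fold change 0.43, adjusted p = 0.0356), and it lost the call with both scalings and without FP replicate 2, PBS replicate 2 or PBS replicate 3 (adjusted p = 0.0693 to 0.391). Erlin2, part of the complex that restrains SREBP activation, was at 23.2 ± 2.44 CPM after FP and 41.6 ± 5.47 CPM after PBS (log2 fold change -0.84, SE 0.13, adjusted p = 0.000693). Rnf145, a ubiquitin ligase, fell by 0.29 on the log2 scale (adjusted p = 0.0279). This call ended with no filter and without FP replicate 1 or 3 or any single PBS library (adjusted p = 0.061 to 0.124). Mbtps1, the first protease that cleaves SREBPs, fell by 0.24 on the log2 scale (adjusted p = 0.0329), a call lost in the same settings (adjusted p = 0.0517 to 0.139).

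Sterol uptake and transport genes were split, with 4 higher, 3 lower and 9 not passing of 16. With upper-quartile factors 4 rose and 6 fell, and the list's median turned from 0.12 to -0.08, while that of all genes moved from -0.05 to -0.25. The number lower was 1 without FP replicate 1 or 2 or PBS replicate 2 or 3. Stard4, a carrier of cholesterol between membranes and a known SREBP2 target, measured 94.9, 102, 76.5 and 80.6 CPM after FP and 51.2, 45.5 and 51.5 CPM after PBS (log2 fold change 0.84, SE 0.12, adjusted p = 0.000415). Lrp8, a lipoprotein receptor, was at 27.1 ± 4.11 CPM after FP and 12.5 ± 3.27 CPM after PBS (log2 fold change 1.11, SE 0.19, adjusted p = 0.00137). Npc2, which carries cholesterol out of lysosomes, rose by a log2 fold change of 0.73 (adjusted p = 0.00212).

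Genes of sterol efflux and of the liver X receptor (LXR), which responds to oxysterols and turns on efflux, had 2 higher, 5 lower and 5 not passing of 12. Abca1, the cholesterol exporter and an LXR target, measured 10.3, 10.9, 8.32 and 9.61 CPM after FP and 59.0, 80.2 and 67.4 CPM after PBS (log2 fold change -2.82, SE 0.14, adjusted p = 1.3e-06). No FP library came near PBS. Mylip, an LXR target that encodes a ubiquitin ligase, fell by 0.73 on the log2 scale (adjusted p = 0.00154). Cyp27a1 (-5.86, adjusted p = 9.87e-05) and Nr1h3, which encodes LXR alpha (-2.49, adjusted p = 0.00112), fell as well. Macrophages express Abca1, Cyp27a1 and Nr1h3, and the macrophage marker Vcam1 was at 11.2, 21.5, 2.01 and 7.05 CPM after FP and 183, 443 and 313 CPM after PBS. The part of macrophage RNA in these falls was not tested.

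**Figure D5:**
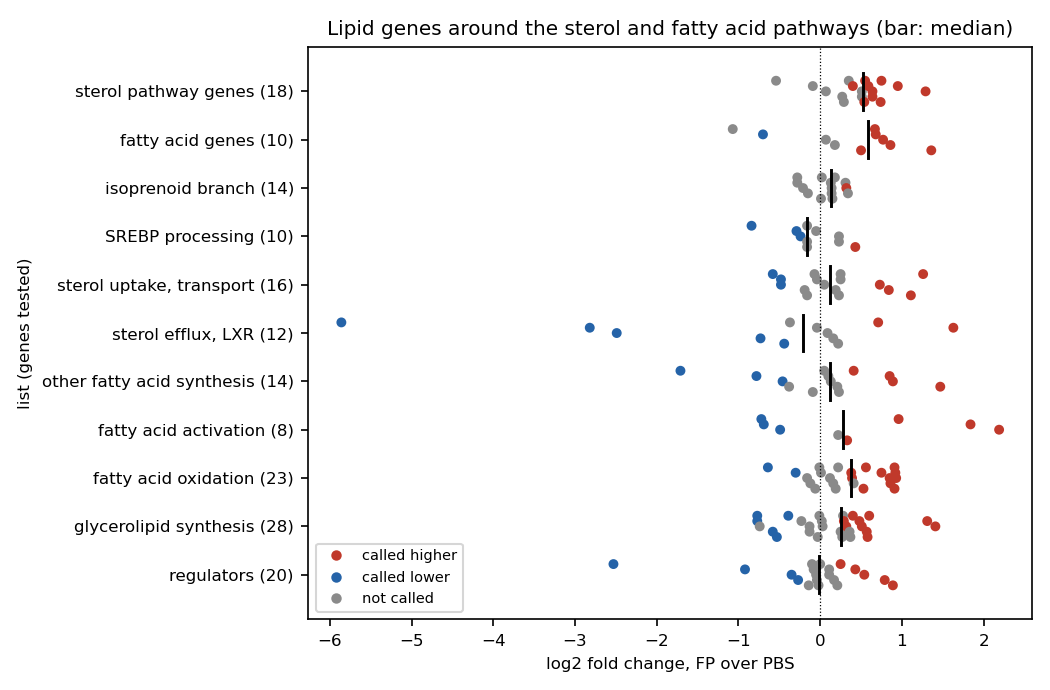
Log2 fold change of FP over PBS (horizontal axis) for the tested genes of each list (rows, with the number tested), with red for genes called higher, blue for lower, grey for neither, and a bar at the median. The sterol genes (median 0.53) and fatty acid genes (0.58) have the medians farthest to the right, and the efflux and LXR list has the lowest median (-0.21).

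In the fatty acid genes outside the 32, 4 of 14 rose and 3 fell, with a median log2 fold change of 0.12. With upper-quartile factors and with only library size 3 rose and 4 fell. The list's medians were then -0.09 and -0.16, and those of all genes -0.25 and -0.31. In this list 1 gene fell without FP replicate 2, PBS replicate 2 or PBS replicate 3. Acacb, the mitochondrial acetyl-CoA carboxylase, was at 5.72 ± 0.780 CPM after FP and 2.06 ± 0.349 CPM after PBS (log2 fold change 1.47, SE 0.23, adjusted p = 0.000771). Hsd17b12, the ketoreductase that works with the elongases, rose by a log2 fold change of 0.85 (adjusted p = 0.00247). Mid1ip1, which promotes polymerization of acetyl-CoA carboxylase, rose by 0.89 (adjusted p = 0.00297). Hacd4, a dehydratase of the elongation cycle, fell by 1.71 on the log2 scale (adjusted p = 0.000652).

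These counts depended on the scaling of the libraries. The median over all genes moved from a log2 fold change of -0.05 to -0.25 with upper-quartile factors and to -0.31 when only library size was used. The number of the 31 genes that rose was then 11 and 8, and the number that fell was 3 and 5. In the other direction, 18 rose and 1 fell with DESeq2 size factors, and 20 rose and 1 fell in the DESeq2 test. Of all genes, 39.3% and 40.0% were called in these settings. Hmgcs1 (adjusted p = 0.0321), Fdft1 (0.0284), Sc5d (0.0434) and Srebf2 (0.0407) passed in the DESeq2 test. Of all genes called, 53.2% were higher with TMM factors, 33.2% with upper-quartile factors and 28.6% when only library size was used. The median of the 31 genes exceeded that of all genes by 0.56 with TMM factors, 0.55 with upper-quartile factors and 0.54 when only library size was used. A change of scaling moves all genes by about the same amount, so this gap could hardly change with it. Over all alternatives the gap ran from 0.41 without FP replicate 2 to 0.64 with the replicate block or no filter. It was 0.45 without PBS replicate 3. Mvd, Cyp51, Ebp, Fasn, Elovl1, Elovl5, Elovl6 and Fads1 rose and Acss2 fell in each of the 15 alternatives run. Nsdhl and Acly lost the call only when library size alone was used (adjusted p = 0.0801 and 0.0943). The other 6 that rose were less firm, and Acat2 was called in 12, Pmvk in 13, Idi1 in 10, Fdps in 8, Sqle in 10 and Hsd17b7 in 7 of the 15.

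Several of these calls changed when a single library was left out. Without PBS replicate 2, and likewise without PBS replicate 3, 5 sterol genes rose in place of 10, and without FP replicate 2 there were 7. Fewer of all genes were called as well, 26.8%, 25.3% and 33.5% in that order, against 39.5% with all libraries. The share of the 18 sterol genes called was 27.8%, 27.8% and 38.9% in these settings, against 55.6% with all libraries. The fatty acid genes kept 6 higher in each of them. Whether the sterol genes lost more calls than other genes was not tested. Idi1, Fdps, Sqle and Hsd17b7 lost the call without PBS replicate 2 (adjusted p = 0.132, 0.0726, 0.0783 and 0.111) and without PBS replicate 3 (0.128, 0.149, 0.134 and 0.122). Pmvk lost it without PBS replicate 2 (0.0541) and Acat2 without PBS replicate 3 (0.0693). Without FP replicate 1, Idi1 (0.0904), Fdps (0.0721) and Hsd17b7 (0.0804) were not called, and without FP replicate 2, Fdps (0.0789), Sqle (0.0664) and Hsd17b7 (0.0999) were not. In the other direction, Hmgcs1 passed without FP replicate 3 (0.0267), FP replicate 4 (0.0368) or PBS replicate 1 (0.0307), and Fdft1 passed without FP replicate 3 (0.0338) or 4 (0.0131). Srebf2 passed without FP replicate 1 (0.0462) or PBS replicate 1 (0.033). Scd1 was called lower without FP replicate 2 (0.0206) and Tm7sf2 without FP replicate 4 (0.0465).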

How the data were processed

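The authors deposited raw counts per gene, with no normalization, in 1 table of 51138 genes and 7 libraries. Per the labels and the submitters' processing notes, libraries were made from 25 ng of total RNA after removal of ribosomal RNA, and reads were mapped to GRCm38 with STAR 2.5.0b and counted with featureCounts 1.5.0. The design text gives a GENCODE annotation and DESeq2 for the authors' own calls. The strand setting of the counting and how reads from gene copies were treated are not stated in the labels or notes.

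The test was edgeR 4.0.16 (R 4.3.3) with filterByExpr, TMM factors and the robust quasi-likelihood fit. Its p-values were adjusted by Benjamini-Hochberg across 15954 genes, and 0.05 was the threshold. Standard errors came from the F statistic. DESeq2 1.42.0, limma-voom 3.58.1, other scalings and filters, a replicate block and leaving out each library were run as alternatives. Symbols were found for 50376 of 51138 identifiers. Coordinates, overlaps and exon lengths came from a newer GENCODE release of the same build. The test was checked on simulated counts.

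The genes and lists were chosen with earlier results of these data known. The genes followed singly are all 32, the 4 with the smallest p of each lipid list, the 2 most abundant of the Treg and macrophage marker lists, and Mki67 and Top2a. Not all of them are named above. Foxp3 and genes that overlap one of the 32 were named besides, after their values were seen. Some genes of these lists are not reported here.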

Additional observations from a re-analysis of the deposited data

Results flagged for a closer look

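In 2 of the 32 genes the highest FP library lay apart from the other 3. Acat2 was at 18.4 CPM in FP replicate 2 and at most 15.4 CPM in the others, a gap of 0.845 of the group's range. Elovl5 was at 240 CPM in FP replicate 2 and at most 203 CPM in the others, a gap of 0.905. Both gaps pass Dixon's 95% limit for 4 samples, and chance flags about 1 in 20 groups. In both genes even the lowest FP value lay above all PBS values, which leaving out the highest FP library cannot change.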

How the results depend on the processing

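Over 15 alternatives, 958 of the comparisons for single genes kept direction and call, 64 lost and 46 gained a call, and 12 reversed; the cause was not tested. With library size alone, 8 of the 31 genes rose and 5 fell, and 2023 of all genes rose and 5046 fell. With upper-quartile factors 3 of the 31 and 4823 of all genes fell. One further gene fell with limma-voom and with no filter, giving 2 in each, and 3 fell with the replicate block. Leaving out 1 library gave 11 to 19 of the 31 genes higher, 1 to 2 lower, and 2314 to 3888 of all genes higher and 1774 to 3389 lower. The count of genes lower fell to 1869 without PBS replicate 2 and to 1774 without PBS replicate 3, and 2 of the 31 were lower without FP replicate 2 and without FP replicate 4.

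Reversed log2 fold changes were those of Msmo1 (-0.02), Dhcr7 (-0.20), Srebf2 (-0.02), Srebf1 (-0.21), Acaca (-0.09) and Scd2 (-0.19) with library size alone. With upper-quartile factors they were those of Dhcr7 (-0.13), Srebf1 (-0.15), Acaca (-0.03) and Scd2 (-0.13). Dhcr7 also reversed without FP replicate 2 (-0.01) and without PBS replicate 3 (-0.04), with a range of -0.04 to 0.15 over the libraries left out. None of these had been called.

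Same-numbered libraries correlated at 0.219, 0.0702 and 0.0966 in their deviations, so the numbers were not taken to pair them, and not every library correlated best with its own number. The replicate block called 18 of the 31 genes higher, and 4122 of all genes higher and 3748 lower. FP replicate 4 has no PBS library of its number, so in this block it adds nothing to the difference between the groups. Without FP replicate 4 and with no block, 18 of the 31 genes were likewise higher, and 3888 of all genes higher and 3389 lower. Depth limits Scd1 and Fads2.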

Other observations

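Lists of genes that activate, oxidize or store fatty acids are given here by their counts, where 21.0% of all genes rose and 18.5% fell. Of all genes, 2399 rose and 4823 fell with upper-quartile factors, and 2023 rose and 5046 fell with library size alone. With TMM factors and all libraries, 4 of 8 genes tested that activate or bind fatty acids rose and 3 fell. None fell without PBS replicate 1 or 2, and 1 fell without FP replicate 1 or PBS replicate 3. The list's median log2 fold change was 0.27, and 0.07 with upper-quartile factors. Fabp5, a fatty acid binding protein, measured 52.6, 45.5, 30.6 and 18.3 CPM after FP and 9.78, 8.19 and 6.11 CPM after PBS (edgeR log2 fold change 2.19, SE 0.36, adjusted p = 0.00178). Dbi, an acyl-CoA binding protein, was at 47.7 ± 14 CPM (SD, n = 4) after FP and 13.3 ± 1.39 CPM (SD, n = 3) after PBS. Acsl5, an acyl-CoA synthetase, was at 202 ± 31.8 CPM after FP and 104 ± 7.59 CPM after PBS.

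Of 23 fatty acid oxidation genes tested, 11 rose and 2 fell, with a median log2 fold change of 0.38. Cpt1a, which commits fatty acids to mitochondrial oxidation, was at 144 ± 19.8 CPM after FP and 76.5 ± 4.42 CPM after PBS (log2 fold change 0.91, SE 0.11, edgeR adjusted p = 0.000211). Slc25a20, the carnitine-acylcarnitine carrier, rose by a log2 fold change of 0.91 and Acadl, an acyl-CoA dehydrogenase, by 0.85. With library size alone 7 oxidation genes rose and 6 fell, and 4 fell with upper-quartile factors. Without PBS replicate 3, 7 rose, and 1 fell on leaving out any single library.

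Of 28 glycerolipid synthesis genes tested, 10 rose and 5 fell. Pcyt1a, the rate-limiting enzyme of phosphatidylcholine synthesis by the CDP-choline route, was at 50.4 ± 7.55 CPM after FP and 18.9 ± 2.42 CPM after PBS (log2 fold change 1.41, SE 0.15, edgeR adjusted p = 8.11e-05). Agpat4, an acyltransferase of the same branch of metabolism, rose by a log2 fold change of 1.31. With upper-quartile factors 6 rose and 8 fell, and with library size alone 4 rose and 9 fell. Without PBS replicate 2 the counts were 7 and 2, and without PBS replicate 3 they were 6 and 2. Of 20 regulators of lipid metabolism tested, 5 rose and 4 fell. With upper-quartile factors 3 rose and 6 fell, with library size alone 2 and 7, and without PBS replicate 2 or 3, 2 and 2. Without FP replicate 1, 2 or 3, 3 rose. Akt1 was higher (log2 fold change 0.89) and Pparg, which macrophages also express, lower (-2.53).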
